A study of Mus musculus with 21 samples.

Results

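Mature microRNAs (miRNAs) were compared between mouse kidneys taken 1 day after an injection of folic acid and kidneys taken at day 0. The day 1 group held 3 libraries from male BALB/c mice, aged 12 weeks, injected with folic acid at 250 mg/kg in 0.3 M sodium bicarbonate. The day 0 group held 3 libraries from male BALB/c mice of the same age, and the labels do not say whether these mice had been injected. All 3 day 1 and all 3 day 0 libraries of the series were used, 6 of 21 libraries in all, and the libraries of the later days entered the fit to share the estimate of the spread. Of the 1125 miRNAs in the deposited table, 431 passed a filter on low counts and were tested. The comparison addresses the earliest sampled response to the injury. It cannot separate folic acid from injection, vehicle or day of collection, because no group without folic acid was sampled on day 1. Whether libraries of 1 day are from different mice is not stated, so the p-values cover only the spread among the libraries, part of which may be technical.

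A miRNA is a short RNA that guides an Argonaute protein to messenger RNAs, mainly through its seed (bases 2 to 8), and lowers their translation and stability. Each hairpin precursor yields a 5p and a 3p arm, of which usually 1 is abundant and the other is mostly degraded. Precursors often lie side by side in 1 transcript, or inside the intron of a protein-coding gene, and miRNAs from different places can share a seed. A high dose of folic acid injures the tubular epithelium of the kidney, and this epithelium is the main source of the miRNAs that dominate the healthy organ, such as miR-192 and the miR-30 family. Injured kidneys are known for a rise of miR-21 and for the entry of leukocytes, which bring miRNAs of their own. In whole kidney, fewer cells of a type and less RNA per cell cannot be told apart.

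The mature sequences that the results turn on are shown first, because several of the clearest contrasts were between miRNAs with the same seed. Sequences and positions are from RefSeq (GRCm38.p6), written 5′ to 3′ with the seed in capitals. Both arms of miR-21 rose, and they have unlike seeds:
miR-21-5p, chr11:86584120-86584141 (-): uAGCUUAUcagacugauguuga
miR-21-3p, chr11:86584082-86584103 (-): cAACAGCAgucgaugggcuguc
miR-132-3p and miR-212-3p lie next to each other and share a seed, and both rose:
miR-132-3p, chr11:75173723-75173744 (+): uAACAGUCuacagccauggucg
miR-212-3p, chr11:75173443-75173464 (+): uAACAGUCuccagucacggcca
Both miR-146 genes encode the same seed, and their products moved apart:
miR-146b-5p, chr19:46342790-46342811 (+): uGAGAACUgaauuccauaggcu
miR-146a-5p, chr11:43374435-43374456 (-): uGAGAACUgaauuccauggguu
Members of 3 related clusters share the seed of miR-17-5p or of miR-92a-3p, and did not move alike:
miR-17-5p, chr14:115043684-115043706 (+): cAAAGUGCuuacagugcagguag
miR-93-5p, chr5:138165574-138165596 (-): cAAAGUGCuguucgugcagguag
miR-106a-5p, chrX:52742541-52742563 (-): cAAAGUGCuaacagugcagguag
miR-92a-3p, chr14:115044476-115044496 (+): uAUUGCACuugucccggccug
miR-25-3p, chr5:138165332-138165353 (-): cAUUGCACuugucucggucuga
miR-363-3p, chrX:52741697-52741718 (-): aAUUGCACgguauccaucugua
Among let-7 miRNAs, let-7i-5p rose and let-7f-5p, the most abundant of them, was not called:
let-7i-5p, chr10:122985698-122985719 (-): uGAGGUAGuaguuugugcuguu
let-7f-5p, chr13:48537889-48537910 (-): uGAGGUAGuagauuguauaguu
The arms of miR-28 were called in opposite directions:
miR-28-5p, chr16:24827868-24827889 (+): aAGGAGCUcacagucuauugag
miR-28-3p, chr16:24827908-24827929 (+): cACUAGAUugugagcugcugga
miR-192-5p and miR-30e-5p represent the abundant kidney miRNAs that fell:
miR-192-5p, chr19:6264857-6264877 (+): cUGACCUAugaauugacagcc
miR-30e-5p, chr4:120772660-120772681 (-): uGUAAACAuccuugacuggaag
The sequences of miR-92a-3p and miR-19b-3p are also encoded on chromosome X, and that of let-7f-5p at a further locus, so that their reads cannot be assigned to 1 locus. miR-17-5p and miR-106a-5p differ at 1 of 23 positions, and miR-146b-5p and miR-146a-5p at 2 of 22 positions. How reads with mismatches were assigned is not given in the sources used here.

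Levels below are CPM, reads assigned to a miRNA after each library was scaled to the same total and then by TMM, a scaling that assumes most miRNAs do not change. They are listed for replicates 1, 2 and 3 of each day. Fold changes were taken after adding 1 CPM and a log2 transform, so that those of scarce miRNAs come out too small, and are given with their standard error (±). A miRNA was called when its limma p, adjusted over all 431 tested by the Benjamini-Hochberg method, was under 0.05. The 6 libraries held 2875675 to 5886820 reads assigned to miRNAs and had between 587 and 625 miRNAs with a read. A count of 0 allowed up to 0.51 CPM in the deepest and 1.04 CPM in the shallowest of them, for counting error only. On the first principal component of all 21 libraries, which held 41.1% of the variance, day 1 libraries lay at -3.01 to -1.63 and day 0 libraries at -10.6 to -10.2.

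At 1 day after folic acid, 109 miRNAs were called, 25.3% of the 431 tested. Of these, 61 were higher (14.2%) and 48 were lower (11.1%). Scaled by library totals alone, which raised the median log2 fold change of the tested miRNAs to 0.08 against -0.01 in the main scaling, 65 were higher and 27 lower. Without day 0 replicate 2, 31 were lower in place of 48. Without day 0 replicate 3, falls outnumbered rises, with 43 higher and 49 lower. Rises were larger than falls: the median called rise was 0.85 and the median called fall was -0.51 (log2 fold change). A log2 fold change of at least 1 in size was seen in 25 miRNAs that rose and in 1 that fell, miR-720. The 3 day 1 libraries lay wholly above or below the 3 day 0 libraries in 59 of the rises and 47 of the falls, and in 154 of all 431 tested (35.7%). The exceptions were miR-145-5p, miR-34b-5p and miR-30d-3p. In the plot of level against change, rises and falls both spread over a wide range of levels, and the falls are centred at a higher level.

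**Figure D1:**
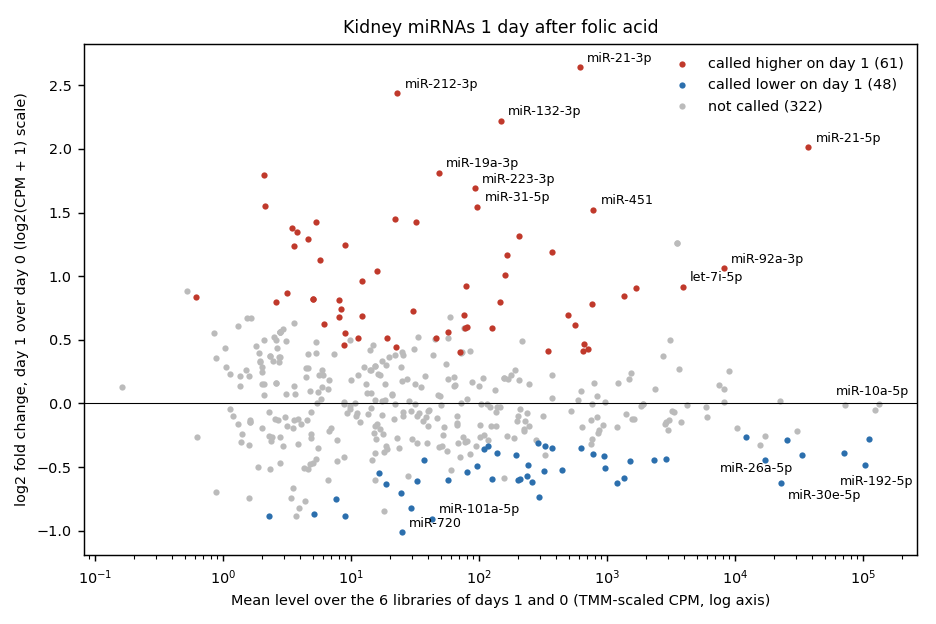
Mean level over the 6 libraries of days 1 and 0 (TMM-scaled CPM, log axis) against the log2 fold change of day 1 over day 0, 1 point for each of the 431 tested miRNAs, red where called higher (61) and blue where called lower (48). The called falls cluster around their median of -0.51 and include several of the most abundant miRNAs, and miR-21-5p is the most abundant of the rises.

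Called falls had a higher median level than called rises, and both had a higher one than miRNAs not called. The median level over the 6 libraries was 45.6 CPM for the 61 that rose, 249.7 CPM for the 48 that fell and 20.2 CPM for those not called. Of the 56 tested miRNAs above 1000 CPM, 5 rose and 13 fell. Below 10 CPM, 20 rose, 4 fell and 121 were not called. The share that rose at this level was near the 14.2% of all tested miRNAs called higher, and the share that fell was below the 11.1% called lower. The median GC content of the mature sequence was 47.8% for rises (53 with a RefSeq sequence), 45.8% for falls (37) and 48.0% for miRNAs not called (255).

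As shares of all miRNA reads in the deposited values, the 61 miRNAs that rose held 9.03% ± 0.31 on day 1, against 2.87% ± 0.26 on day 0 (SD, n = 3 each). The 48 that fell held 35.9% ± 2.27 on day 1, against 44.4% ± 0.72 on day 0. These sets were chosen on this same contrast, so the shares are a description. Most of the gain was miR-21-5p alone, with 5.97% ± 0.145 of miRNA reads on day 1, against 1.40% ± 0.151 on day 0, a difference of 4.57 percentage points. Most of the loss was spread over miR-192-5p (-2.71 points), miR-30a-5p (-1.43), miR-22-3p (-1.43), miR-30e-5p (-0.81) and miR-26a-5p (-0.73). A share can fall because another miRNA rose, and CPM cannot tell these apart.

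Both arms of miR-21, the miRNA known for rising in injured and fibrotic tissue, rose at 1 day, the passenger arm by the largest log2 fold change of all called miRNAs. miR-21-5p, the guide arm, had 59789.6, 55689.5 and 62756 CPM in the day 1 libraries, against 15616, 15742 and 12862 CPM in the day 0 libraries (log2 fold change 2.02 ± 0.15, limma adjusted p = 4.42e-09). miR-21-3p, the passenger arm, had 1203, 1006 and 937 CPM in the day 1 libraries, against 188, 196 and 124 CPM in the day 0 libraries (log2 fold change 2.64 ± 0.20, limma adjusted p = 4.42e-09). The days were far apart for both arms, and all 3 day 1 libraries lay above all 3 day 0 libraries. The hairpin lies in the transcript of Vmp1 in the GENCODE M21 annotation.

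The neighbours miR-132 and miR-212, known as targets of the transcription factor CREB, rose on both arms. miR-132-3p had 264, 251 and 214 CPM in the day 1 libraries, against 56.5, 51.3 and 46.0 CPM in the day 0 libraries (log2 fold change 2.22 ± 0.20, limma adjusted p = 3.58e-08). miR-212-3p had 46.2, 37.8 and 34.0 CPM in the day 1 libraries, against 8.08, 6.89 and 4.63 CPM in the day 0 libraries (log2 fold change 2.44 ± 0.24, limma adjusted p = 1.33e-07). Summed over their shared seed AACAGUC, the family gained 2.27 ± 0.20, limma adjusted p = 1.38e-08, in log2 units. Their passenger arms also rose, by 1.29 for miR-132-5p and 1.35 for miR-212-5p. miR-31, known from the epithelium of healing wounds, rose on its abundant arm. miR-31-5p had 133, 125 and 173 CPM in the day 1 libraries, against 43.5, 61.4 and 41.7 CPM in the day 0 libraries (log2 fold change 1.55 ± 0.19, limma adjusted p = 4.04e-06). miR-31-3p was under the level of 3 reads in each day 0 library, with 2.27, 3.89 and 5.23 CPM on day 1, against 0.263, 0.191 and 0.579 CPM on day 0. It was called by limma in the fit of 21 libraries, but did not pass the low-count filter when the 6 libraries were filtered alone, so its call is given as a description.

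**Figure D2:**
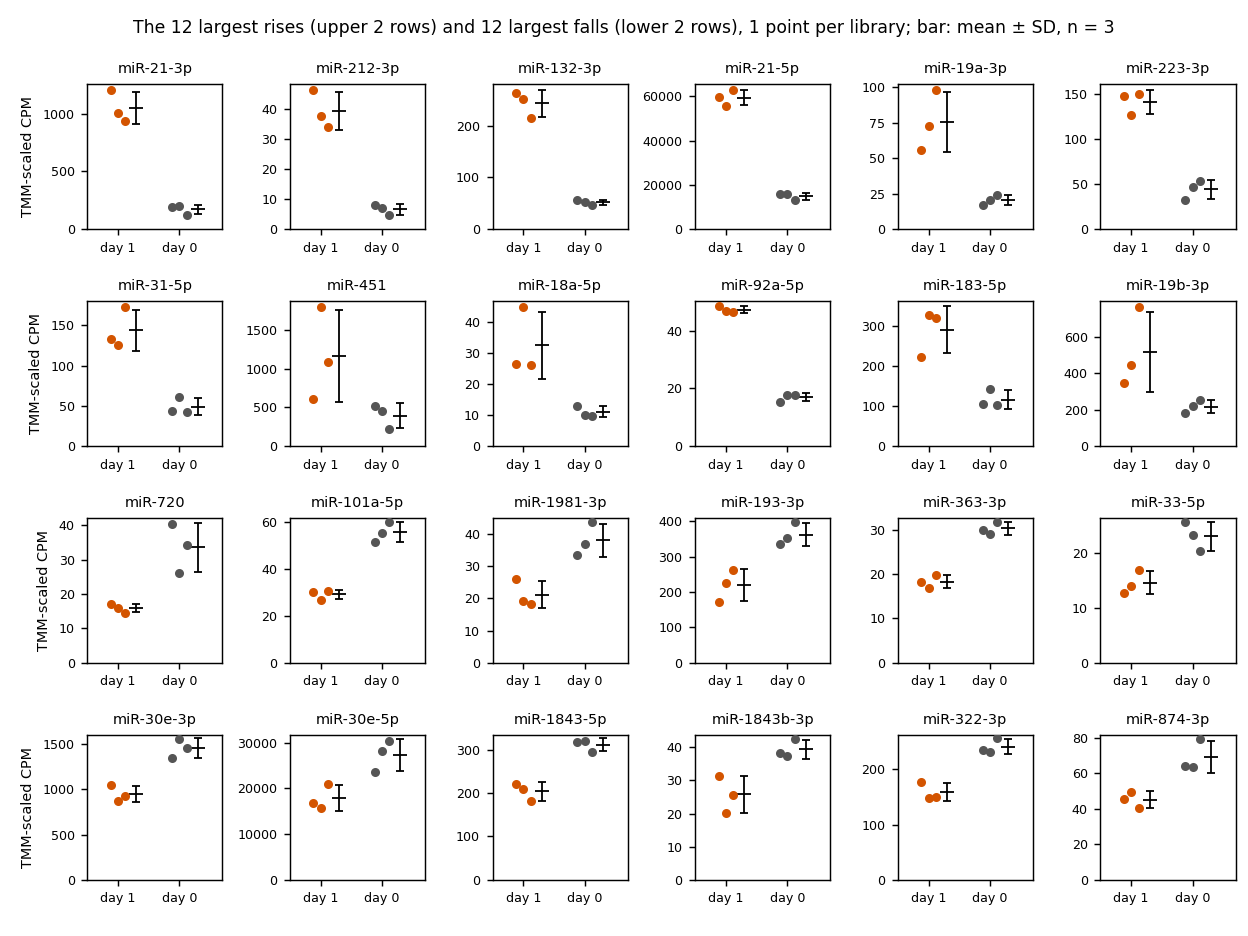
TMM-scaled CPM in each library (points, day 1 left and day 0 right) with mean ± SD (n = 3), for 24 called miRNAs, the 12 that rose most and the 12 that fell most where the level averaged 10 CPM or more and the days did not overlap. The rises include miR-21-3p at a log2 fold change of 2.64, while the falls reach -1.01 in miR-720.

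miRNAs of white blood cells rose in part. miR-223-3p, which marks granulocytes and monocytes, had 148, 126 and 149.7 CPM in the day 1 libraries, against 32.3, 46.5 and 52.7 CPM in the day 0 libraries (log2 fold change 1.69 ± 0.21, limma adjusted p = 4.04e-06). miR-142-3p, found in all blood-forming lineages, had 99.9, 87.1 and 125 CPM in the day 1 libraries, against 54.7, 52.8 and 53.6 CPM in the day 0 libraries (log2 fold change 0.93 ± 0.19, limma adjusted p = 0.001). In the myeloid list (miR-223, miR-511), 2 of 4 tested arms were called higher and none lower, beside 14.2% of all tested miRNAs called higher, and edgeR and DESeq2 each called 1. The 2 that rose were the arms of miR-223. Neither arm of miR-511 was called, and the lowest log2 fold change of the list, -0.31, was in miR-511. The summed level of the list, most of it miR-223-3p, ran from 139 to 158 CPM on day 1, against 35.4 to 54.9 CPM on day 0 in the deposited values, and no member was at 0. In the list of other leukocyte miRNAs (miR-142, miR-150, miR-342), 2 of 5 rose and none fell, beside the same 14.2%, with sums of 1165 to 1273 CPM on day 1, against 837 to 1089 CPM on day 0. The lymphocyte miRNA miR-150-5p was not called, with 245, 232 and 268 CPM in the day 1 libraries, against 248, 297 and 374 CPM in the day 0 libraries. The other called arms of these lists were less firm: the call of miR-142-5p was lost without day 1 replicate 1 or 3 or day 0 replicate 1 or 3 (limma adjusted p = 0.0525 to 0.158), and that of miR-223-5p without day 1 replicate 1 or 3 or day 0 replicate 1, 2 or 3 (limma adjusted p = 0.0525 to 0.0805).

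The miRNAs that NF-kB induces did not behave alike. miR-155-5p, which activated macrophages and lymphocytes make, had 94.3, 82.4 and 107 CPM in the day 1 libraries, against 60.4, 54.9 and 57.6 CPM in the day 0 libraries (log2 fold change 0.70 ± 0.12, limma adjusted p = 0.000175). miR-146b-5p had 197, 229 and 262 CPM in the day 1 libraries, against 92.2, 87.2 and 128 CPM in the day 0 libraries (log2 fold change 1.17 ± 0.20, limma adjusted p = 0.000233). miR-146a-5p, its relative with the same seed and a known brake on Toll-like receptor signalling through Traf6 and Irak1, had 159.8, 159.6 and 166 CPM in the day 1 libraries, against 215, 200.2 and 339.5 CPM in the day 0 libraries (log2 fold change -0.59 ± 0.21, limma adjusted p = 0.0461). Its call was lost without day 1 replicate 1, 2 or 3 or day 0 replicate 3 (limma adjusted p = 0.0689 to 0.187). That call was also lost with library totals, upper-quartile scaling or no filter. The log2 ratio of miR-146b-5p over miR-146a-5p was 0.30, 0.52 and 0.66 on day 1, against -1.21, -1.19 and -1.40 on day 0, a gain of 1.76 ± 0.20, limma adjusted p = 8.98e-06. This ratio changed sides: miR-146b-5p was the scarcer of the pair in each day 0 library and the more abundant in each day 1 library. Their sum, the family with the seed GAGAACU, was not called, at a log2 fold change of 0.17 (95% interval -0.23 to 0.58).

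Ratios of this kind were taken between tested miRNAs that share a seed or whose precursors lie within 10 kb of each other, a comparison added after the data had been seen. Of 252 such pairs, 82 changed on day 1 (32.5%), with 50 of 129 same-seed pairs (38.8%) and 32 of 123 neighbouring pairs (26%). Pairs overlap in their members and are not independent of each other.

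The miR-17 to miR-92a cluster, which MYC induces and which promotes cell division, rose together. Of its 10 tested arms, 8 rose and none fell, beside 14.2% of all tested called higher, with a median log2 fold change of 1.13, beside -0.01 over all tested miRNAs. miR-17-5p had 188, 216 and 237 CPM in the day 1 libraries, against 102, 105 and 108 CPM in the day 0 libraries (log2 fold change 1.01 ± 0.13, limma adjusted p = 1.06e-05). miR-18a-5p had 26.4, 45.1 and 26.1 CPM in the day 1 libraries, against 13.0, 10.1 and 9.84 CPM in the day 0 libraries (log2 fold change 1.45 ± 0.20, limma adjusted p = 1.65e-05). miR-19a-3p, the largest rise of the cluster, had 55.8, 73.1 and 98.2 CPM in the day 1 libraries, against 16.9, 20.7 and 23.7 CPM in the day 0 libraries (log2 fold change 1.81 ± 0.21, limma adjusted p = 1.38e-06). In all 3, the day 1 libraries stood clear of the day 0 range. miR-20a-5p had 159, 187 and 209 CPM in the day 1 libraries, against 94.5, 112 and 110.3 CPM in the day 0 libraries (log2 fold change 0.80 ± 0.12, limma adjusted p = 3.03e-05). miR-19b-3p had 344, 446 and 767 CPM in the day 1 libraries, against 179, 218 and 251 CPM in the day 0 libraries (log2 fold change 1.19 ± 0.23, limma adjusted p = 0.000572). The most abundant product, miR-92a-3p, had 12086, 10225 and 10818 CPM in the day 1 libraries, against 5431, 5685 and 4744 CPM in the day 0 libraries (log2 fold change 1.06 ± 0.10, limma adjusted p = 5.72e-08). Its passenger arm miR-92a-5p had 48.5, 46.9 and 46.3 CPM in the day 1 libraries, against 15.4, 17.8 and 17.7 CPM in the day 0 libraries (log2 fold change 1.43 ± 0.12, limma adjusted p = 2.52e-08). Members did not rise equally, as the log2 ratio of miR-20a-5p over its neighbour miR-19a-3p fell by 1.01 ± 0.15, limma adjusted p = 7.96e-05.

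The related clusters behaved differently. The miR-106b to miR-25 cluster lies in an intron of Mcm7, a gene of DNA replication, and its abundant arms were not called. miR-93-5p had 945, 956 and 969 CPM in the day 1 libraries, against 949, 1036 and 873 CPM in the day 0 libraries. miR-25-3p had 1819, 1702 and 1465 CPM in the day 1 libraries, against 1506, 1516 and 1213 CPM in the day 0 libraries (log2 fold change 0.24 ± 0.11, limma adjusted p = 0.131). The days overlapped for both. Of the cluster's 6 tested arms, 2 rose and none fell, beside 14.2% of all tested called higher. The 2 were the passenger arms miR-25-5p and miR-93-3p. Both of these calls were lost when single libraries were left out: that of miR-25-5p without day 1 replicate 2 or 3 or day 0 replicate 3 (limma adjusted p = 0.0567 to 0.145), and that of miR-93-3p without day 1 replicate 1 or 2 or day 0 replicate 1, 2 or 3 (limma adjusted p = 0.0561 to 0.103). In the miR-106a to miR-363 cluster on chromosome X, 1 of the 3 tested arms that belong to it alone fell and none rose. Of all tested miRNAs, 11.1% were called lower. miR-363-3p had 18.2, 16.8 and 19.8 CPM in the day 1 libraries, against 29.9, 29.1 and 31.8 CPM in the day 0 libraries (log2 fold change -0.70 ± 0.23, limma adjusted p = 0.0323), and its call was lost without day 1 replicate 1 or 2 or day 0 replicate 1, 2 or 3 (limma adjusted p = 0.0594 to 0.0947). miR-106a-5p had 5.92, 5.70 and 7.46 CPM in the day 1 libraries, against 8.86, 8.98 and 9.26 CPM in the day 0 libraries (log2 fold change -0.45 ± 0.21, limma adjusted p = 0.131). miR-20b-5p had 12.1, 11.7 and 11.2 CPM in the day 1 libraries, against 14.3, 16.4 and 25.5 CPM in the day 0 libraries (log2 fold change -0.60 ± 0.29, limma adjusted p = 0.131). In both, the day 1 libraries lay below the day 0 range without a call.

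Set against each other within each library, members of 1 seed family parted. The log2 ratio of miR-93-5p over miR-17-5p was 2.32, 2.14 and 2.02 on day 1, against 3.20, 3.29 and 3.00 on day 0, a fall of 1 in log2 units (SE 0.12) that limma called at an adjusted p of 8.98e-06. That of miR-17-5p over miR-106a-5p was 4.77, 5.02 and 4.82 on day 1, against 3.39, 3.41 and 3.41 on day 0, a change of 1.46 ± 0.25, limma adjusted p = 0.000337. For the other shared seed, the log2 ratio of miR-92a-3p over miR-25-3p was 2.73, 2.59 and 2.88 on day 1, against 1.85, 1.91 and 1.97 on day 0, a change of 0.83 ± 0.09, limma adjusted p = 8.98e-06. The ratio of miR-92a-3p over miR-363-3p changed by 1.76 ± 0.27, limma adjusted p = 0.000124. Days did not overlap in any of these 4 ratios, and each kept its call under the alternatives run. Because miR-92a-3p makes up most of its family, the summed seed AUUGCAC still rose, by 0.89 ± 0.09, limma adjusted p = 3.43e-07. The summed seed AAAGUGC, in which miR-93-5p is the most abundant, was not called, at 0.20 (95% interval 0.02 to 0.38).

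**Figure D3:**
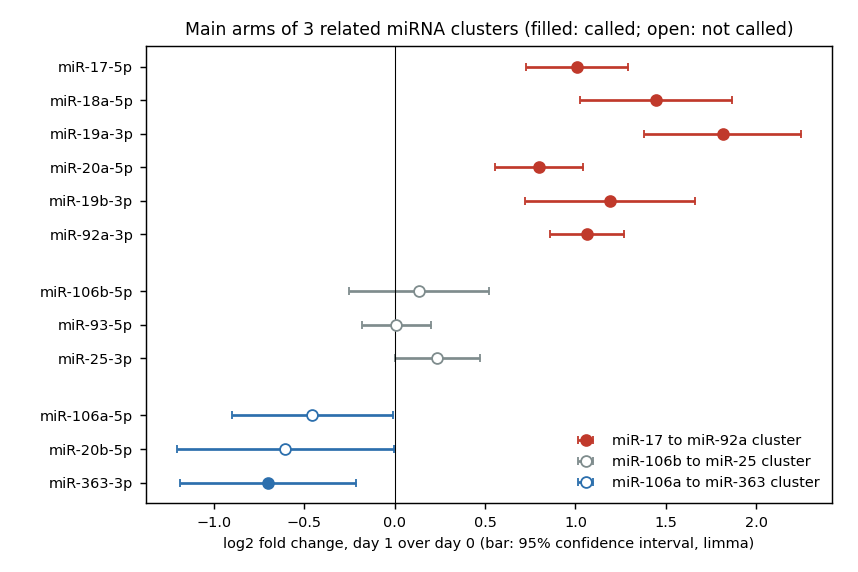
Log2 fold change of day 1 over day 0 (point) with its 95% confidence interval (bar, limma) for the abundant arms of the miR-17 to miR-92a (red), miR-106b to miR-25 (grey) and miR-106a to miR-363 (blue) clusters, filled where called. All 6 arms of the miR-17 to miR-92a cluster lie to the right of 0, at 0.80 to 1.81, and the 3 arms of the miR-106a to miR-363 cluster lie to its left, of which only miR-363-3p was called.

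Smaller rises were seen in several families. Of the miR-34 family, which p53 induces after DNA damage, 3 of 5 tested arms rose and none fell, beside 14.2% of all tested called higher, and edgeR and DESeq2 each called 2. miR-34c-3p had 7.29, 10.6 and 6.72 CPM in the day 1 libraries, against 2.61, 2.68 and 4.34 CPM in the day 0 libraries (log2 fold change 1.13 ± 0.24, limma adjusted p = 0.00162). The abundant arm miR-34c-5p was not called, with 248, 206 and 316 CPM in the day 1 libraries, against 185, 245 and 259.6 CPM in the day 0 libraries, nor was miR-34a-5p, with 62.8, 73.1 and 121 CPM in the day 1 libraries, against 62.5, 57.2 and 66.3 CPM in the day 0 libraries. The days overlap in both of these more abundant arms. The other 2 that rose were miR-34b-3p, whose call was lost without day 1 replicate 1 or 3 or day 0 replicate 1 (limma adjusted p = 0.0517 to 0.0653), and miR-34b-5p, whose call was lost without day 1 replicate 1 or 3 or day 0 replicate 1 or 3 (limma adjusted p = 0.095 to 0.231).

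In the miR-183 cluster, known from sensory organs, miR-183-5p had 223, 328 and 319 CPM in the day 1 libraries, against 103, 142 and 101 CPM in the day 0 libraries (log2 fold change 1.32 ± 0.21, limma adjusted p = 6.68e-05). Its abundant neighbour miR-182-5p had 3009.8, 2876 and 5032 CPM in the day 1 libraries, against 2099, 3024 and 2417 CPM in the day 0 libraries and was not called. Within libraries, the log2 ratio of miR-182-5p over miR-183-5p changed by -0.82 ± 0.15, limma adjusted p = 0.000567. miR-96-5p, the last member, rose by 1.04 in log2 units, a call lost without day 1 replicate 3 or day 0 replicate 1 or 2 (limma adjusted p = 0.0557 to 0.104). Scaled by library totals, miR-182-5p was called as well.

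miR-221-3p, which represses the cell cycle inhibitor Cdkn1b, rose, and its partner was not called. It had 1648, 1839 and 1692 CPM in the day 1 libraries, against 1077, 929.6 and 879 CPM in the day 0 libraries (log2 fold change 0.85 ± 0.09, limma adjusted p = 8.96e-07). miR-222-3p, from the next precursor and with the same seed, had 1422, 1076 and 1353 CPM in the day 1 libraries, against 1262, 1108 and 1058 CPM in the day 0 libraries, with overlapping days and no call. Their log2 ratio was 0.21, 0.77 and 0.32 on day 1, against -0.23, -0.25 and -0.27 on day 0, a change of 0.68 ± 0.18, limma adjusted p = 0.00836. The summed seed GCUACAU rose by 0.52 ± 0.08, limma adjusted p = 7.38e-05.

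Neighbours also parted in the miR-23, miR-27 and miR-24 clusters, in which 3 of 8 tested arms rose and none fell, beside 14.2% of all tested called higher. miR-23b-3p had 2022, 2367 and 2159 CPM in the day 1 libraries, against 1172, 1118 and 1198 CPM in the day 0 libraries (log2 fold change 0.91 ± 0.12, limma adjusted p = 1.21e-05). miR-23a-3p had 613, 677 and 733 CPM in the day 1 libraries, against 434, 412 and 473 CPM in the day 0 libraries (log2 fold change 0.61 ± 0.12, limma adjusted p = 0.000806). Their neighbours, which come from the same transcripts, were not called. miR-27b-3p had 29787, 27046 and 27147 CPM in the day 1 libraries, against 30983, 35186 and 31663 CPM in the day 0 libraries. miR-27a-3p had 1381, 1321 and 1356 CPM in the day 1 libraries, against 1279.9, 1414 and 1624 CPM in the day 0 libraries. The log2 ratio of miR-27b-3p over miR-23b-3p changed by -1.12 ± 0.17, limma adjusted p = 0.000128, and that of miR-27a-3p over miR-23a-3p by -0.70 ± 0.18, limma adjusted p = 0.00655. DESeq2 on the recovered reads called 1 arm of these clusters lower.

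The let-7 family, which represses growth genes such as Hmga2, differed among its members. Of 18 tested arms, 4 rose and none fell, a share near the 14.2% of all tested miRNAs that were called higher, and the limma fit of the 6 libraries alone called 2. let-7i-5p had 5218, 5180.4 and 4836 CPM in the day 1 libraries, against 2976, 2624 and 2479 CPM in the day 0 libraries (log2 fold change 0.92 ± 0.14, limma adjusted p = 4.72e-05). let-7e-5p had 766, 809.6 and 713 CPM in the day 1 libraries, against 588, 530.3 and 539 CPM in the day 0 libraries (log2 fold change 0.47 ± 0.10, limma adjusted p = 0.00179). let-7f-5p had 23493, 22205 and 21579.7 CPM in the day 1 libraries, against 25262, 20089.6 and 21284 CPM in the day 0 libraries, with no call. The log2 ratio of let-7f-5p over let-7i-5p was 2.17, 2.10 and 2.16 on day 1, against 3.09, 2.94 and 3.10 on day 0, a change of -0.90 ± 0.15, limma adjusted p = 0.000231. The remaining 2 rises were passenger arms. The call of let-7d-3p was lost without day 1 replicate 1 or day 0 replicate 2 or 3 (limma adjusted p = 0.0557 to 0.112), and that of let-7e-3p without day 1 replicate 1, 2 or 3 or day 0 replicate 1, 2 or 3 (limma adjusted p = 0.0565 to 0.151).

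Among the falls, the tubular miRNAs lost part of their large share. miR-192-5p, which proximal tubules and gut make in quantity, had 91843, 88843 and 78701 CPM in the day 1 libraries, against 124500.0, 129013 and 109143 CPM in the day 0 libraries (log2 fold change -0.48 ± 0.12, limma adjusted p = 0.00523). The tubular list (miR-192, miR-194, miR-215) had 2 of 5 tested arms lower and none higher, beside 11.1% of all tested called lower, with summed levels of 75569.7 to 97199.8 CPM on day 1, against 108585 to 126763 CPM on day 0 in the deposited values. The second fall, miR-194-2-5p, was a call lost without day 1 replicate 2 or 3 or day 0 replicate 1 or 2 (limma adjusted p = 0.0566 to 0.0737). It was also lost with upper-quartile scaling or no filter. The loss was partial, since miR-192-5p stayed among the 10 most abundant miRNAs.

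In the miR-30 family, abundant in tubules and podocytes, 4 of 10 tested arms fell and none rose, or 3 with library totals, beside 11.1% of all tested called lower. The median log2 fold change was -0.29. miR-30e-5p had 16774, 15694 and 21042 CPM in the day 1 libraries, against 23578, 28146 and 30413 CPM in the day 0 libraries (log2 fold change -0.62 ± 0.16, limma adjusted p = 0.00707). Its other arm miR-30e-3p had 1044, 868 and 919 CPM in the day 1 libraries, against 1339.5, 1556 and 1459 CPM in the day 0 libraries (log2 fold change -0.62 ± 0.12, limma adjusted p = 0.000739). miR-30a-5p had 60079, 54064 and 70633 CPM in the day 1 libraries, against 72740.0, 89377 and 79082 CPM in the day 0 libraries (log2 fold change -0.39 ± 0.11, limma adjusted p = 0.015), and its call was lost without day 1 replicate 2 or day 0 replicate 2 (limma adjusted p = 0.0815 to 0.0947). miR-30e lies in an intron of Nfyc, and its arms fell by like amounts. miR-30c-5p was not called, with 13262, 11418 and 17008 CPM in the day 1 libraries, against 15364, 16874 and 19717 CPM in the day 0 libraries. miR-30d-5p, with 14826, 13446 and 18145 CPM on day 1, against 16615, 20092 and 18409.6 CPM on day 0, was not called. The call of miR-30d-3p, the remaining fall, was lost without day 1 replicate 2 or 3 or day 0 replicate 2 (limma adjusted p = 0.0761 to 0.106). The summed seed GUAAACA, which here covers miR-30a, miR-30e and miR-30c, fell by 0.43 ± 0.12, limma adjusted p = 0.0149, a call lost without day 1 replicate 2 or day 0 replicate 2 (limma adjusted p = 0.0659 to 0.0779).

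Other abundant or epithelial miRNAs fell by similar amounts. miR-26a-5p, which represses growth, had 29672, 26820.0 and 29703 CPM in the day 1 libraries, against 34571, 37937 and 42022 CPM in the day 0 libraries (log2 fold change -0.41 ± 0.09, limma adjusted p = 0.00163). miR-181a-5p had 15538, 12529 and 15114 CPM in the day 1 libraries, against 17629, 22974 and 18374 CPM in the day 0 libraries (log2 fold change -0.45 ± 0.10, limma adjusted p = 0.00314). miR-181b-5p had 888, 664 and 835 CPM in the day 1 libraries, against 1089.7, 1219 and 1070.1 CPM in the day 0 libraries (log2 fold change -0.51 ± 0.11, limma adjusted p = 0.00179). The miR-181 family had 4 of 7 tested arms lower and none higher, or 2 with library totals, beside the same 11.1%, and its summed seed ACAUUCA fell by 0.45 ± 0.10, limma adjusted p = 0.00185. Its scarcest 5p member miR-181d-5p had 130.5, 108 and 107 CPM in the day 1 libraries, against 107, 128 and 109 CPM in the day 0 libraries and was not called. miR-181c-5p was lost as a call without day 0 replicate 2 (limma adjusted p = 0.0561), and miR-181a-3p without day 1 replicate 2 or day 0 replicate 2 (limma adjusted p = 0.0673 to 0.0705).

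miR-200a-3p, which holds epithelial identity by repressing Zeb1 and Zeb2, had 1145, 1319 and 1362 CPM in the day 1 libraries, against 1571, 1698 and 1985 CPM in the day 0 libraries (log2 fold change -0.45 ± 0.10, limma adjusted p = 0.00162). It was the only called arm of 8 tested in the miR-200 family, a share near the 11.1% of all tested miRNAs called lower. miR-200b-3p, from the next precursor, had 3881, 4014 and 4600.3 CPM in the day 1 libraries, against 3764, 4059 and 4798 CPM in the day 0 libraries, with overlapping days. miR-22-3p, the third most abundant miRNA over the 6 libraries, had 107194, 96929.6 and 97078 CPM in the day 1 libraries, against 121714, 119222 and 124013 CPM in the day 0 libraries (log2 fold change -0.28 ± 0.09, limma adjusted p = 0.0357), and its call was lost without day 1 replicate 2 or 3 or day 0 replicate 1 or 2 (limma adjusted p = 0.061 to 0.106). miR-378-3p, hosted by the metabolic regulator gene Ppargc1b, had 23712, 22434 and 22036 CPM in the day 1 libraries, against 27964, 30336 and 25090.2 CPM in the day 0 libraries (log2 fold change -0.29 ± 0.10, limma adjusted p = 0.0495), a call lost without day 1 replicate 1, 2 or 3 or day 0 replicate 1 or 2 (limma adjusted p = 0.0579 to 0.198). The days did not overlap in either. The calls of miR-22-3p and miR-378-3p were also lost with library totals, upper-quartile scaling, no filter or the 6 libraries alone (limma adjusted p up to 0.283 for miR-22-3p). That of miR-378-3p was lost as well with a pseudocount of 5, robust empirical Bayes or a replicate block.

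The largest falls were mostly in scarcer products. miR-101a-5p had 30.1, 26.9 and 30.6 CPM in the day 1 libraries, against 51.6, 55.5 and 59.9 CPM in the day 0 libraries (log2 fold change -0.91 ± 0.14, limma adjusted p = 4.17e-05). Its abundant partner miR-101a-3p, which represses the chromatin enzyme Ezh2, had 10714, 10793 and 11227 CPM in the day 1 libraries, against 13112, 14011 and 12272 CPM in the day 0 libraries (log2 fold change -0.27 ± 0.09, limma adjusted p = 0.0368), and that call was lost without day 1 replicate 1, 2 or 3 or day 0 replicate 1 or 2 (limma adjusted p = 0.065 to 0.141). In the miR-101 family 3 of 4 tested arms fell and none rose, beside 11.1% of all tested called lower. With library totals, upper-quartile scaling or the 6 libraries alone, 1 fell. The third, miR-101c, was a call lost without day 1 replicate 1 or day 0 replicate 1 or 2 (limma adjusted p = 0.0594 to 0.0856). miR-193-3p had 172, 226 and 261 CPM in the day 1 libraries, against 335, 354 and 397 CPM in the day 0 libraries (log2 fold change -0.74 ± 0.19, limma adjusted p = 0.00698). miR-33-5p, which lies in Srebf2 and represses the cholesterol exporter Abca1, had 12.8, 14.0 and 16.8 CPM in the day 1 libraries, against 25.5, 23.1 and 20.3 CPM in the day 0 libraries (log2 fold change -0.63 ± 0.17, limma adjusted p = 0.00919). All of these day 1 libraries lay below the day 0 range. The neighbour of miR-193, miR-365-3p, was not called, and the log2 ratio of miR-193-3p over miR-365-3p changed by -0.94 ± 0.27, limma adjusted p = 0.0147.

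miR-720, now regarded as a fragment of a transfer RNA, had 17.1, 16.1 and 14.6 CPM in the day 1 libraries, against 40.4, 26.0 and 34.2 CPM in the day 0 libraries (log2 fold change -1.01 ± 0.26, limma adjusted p = 0.00718). miR-1981-3p had 26.0, 19.2 and 18.3 CPM in the day 1 libraries, against 33.3, 36.9 and 43.4 CPM in the day 0 libraries (log2 fold change -0.82 ± 0.18, limma adjusted p = 0.00162). miR-322-3p, the passenger arm of the mouse counterpart of human miR-424, had 177, 148 and 150.5 CPM in the day 1 libraries, against 235, 231 and 256 CPM in the day 0 libraries (log2 fold change -0.60 ± 0.13, limma adjusted p = 0.00132). miR-1843-5p had 222, 209 and 181 CPM in the day 1 libraries, against 319, 321 and 294 CPM in the day 0 libraries (log2 fold change -0.61 ± 0.13, limma adjusted p = 0.00132). These 4 calls were kept under every alternative run. miR-1843b-3p (log2 fold change -0.61) and miR-874-3p (-0.60) completed the 12 largest called falls averaging at least 10 CPM with no overlap between days. Called falls outside this rule included miR-187-5p (-0.88) and miR-598-3p (-0.75). The call of miR-1843b-3p was lost without day 1 replicate 2 (limma adjusted p = 0.0504). That of miR-874-3p was lost without day 1 replicate 3 or day 0 replicate 3 (limma adjusted p = 0.0525 to 0.0716), and also with library totals or no filter.

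Several abundant miRNAs and groups tied to later stages of kidney injury held no call on day 1. miR-10a-5p, from the Hox clusters and first in abundance over the 6 libraries, had 123943, 110982 and 166682 CPM in the day 1 libraries, against 108567, 150135 and 141131 CPM in the day 0 libraries. miR-10b-5p, second in abundance, had 109094, 104009 and 153232 CPM in the day 1 libraries, against 111191, 146798 and 118023 CPM in the day 0 libraries. miR-143-3p, known from smooth muscle, had 62333, 79616 and 73505 CPM in the day 1 libraries, against 79910.3, 76288 and 61531 CPM in the day 0 libraries. All 3 overlap between the days, and the sign of each difference turned with library totals. Of the miR-29 family, which represses collagens, 0 of 6 tested arms were called, and the log2 fold changes ran from -0.32 to 0.26. The mesenchymal list (miR-199, miR-214) had 0 of 6 called, the endothelial list (miR-126) 0 of 2 and the hypoxia list (miR-210) 0 of 2. Of all tested miRNAs, 25.3% were called in either direction. At an unadjusted limma p under 0.05, miR-29c-3p and miR-214-3p passed and no arm of miR-126 or miR-210 did. edgeR and DESeq2 called none of these arms, and the limma fit of the 6 libraries alone called 1 mesenchymal arm. miR-214-3p had 80.1, 63.5 and 59.7 CPM in the day 1 libraries, against 46.9, 43.4 and 50.1 CPM in the day 0 libraries, all day 1 libraries above day 0, at an adjusted p of 0.0837 by limma. Missing the threshold does not show that levels were equal. The intervals bound the change of miR-126-3p to -0.34 to 0.08 and that of miR-199a-3p to -0.31 to 0.30, in log2 units.

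The remaining lists held few calls. Their counts stand beside 14.2% of all 431 tested miRNAs called higher and 11.1% called lower. The shares called higher in the Dlk1-Dio3 and Sfmbt2 lists, given below, were not above that share. In the miR-15 and miR-16 family, which represses cyclins, miR-15a-5p and miR-497-5p fell and miR-15b-5p rose, of 9 tested. miR-15a-5p had 543, 553 and 548 CPM in the day 1 libraries, against 674, 662 and 763 CPM in the day 0 libraries (log2 fold change -0.35 ± 0.09, limma adjusted p = 0.00825). This call was lost with library totals and in the fit of the 6 libraries alone (limma adjusted p = 0.0597 to 0.110). miR-15b-5p had 69.4, 85.8 and 89.2 CPM in the day 1 libraries, against 63.0, 56.6 and 63.4 CPM in the day 0 libraries. The call of miR-497-5p was lost without day 1 replicate 2 or 3 or day 0 replicate 2 (limma adjusted p = 0.0737 to 0.112). It was also lost with library totals, no filter or the 6 libraries alone. The members with this seed parted, and the log2 ratio of miR-15a-5p over miR-15b-5p changed by -0.75 ± 0.12, limma adjusted p = 0.000218. The list of other kidney miRNAs (miR-10, miR-190, miR-196, miR-204) had 2 of 12 tested arms lower, miR-204-5p and miR-196a-3p, and the list of metabolic host genes (miR-33, miR-378) had 2 of 5 lower, or 1 with library totals. Of the miR-322 to miR-351 cluster 1 of 4 fell, and of miR-193 and miR-365 1 of 5 fell. The smooth muscle list (miR-143, miR-145) had 1 of 4 higher, miR-145-5p, in which the days overlap and whose call was lost without day 1 replicate 2 or 3 or day 0 replicate 1 or 2 (limma adjusted p = 0.0584 to 0.162). The imprinted Dlk1-Dio3 cluster had 1 of 13 tested members higher, miR-409-3p, a call lost without day 0 replicate 3 (limma adjusted p = 0.0771). The Sfmbt2 repeat had 2 of 18 higher, miR-669a-3p and miR-669o-3p, which hold identical values and whose calls were lost without day 0 replicate 3 (limma adjusted p = 0.0537). Lists of striated muscle and of other organs had 1 and 2 tested members, with no call by limma, by edgeR or by DESeq2.

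Red cell miRNAs varied from library to library. miR-451, the erythroid miRNA that Argonaute 2 cuts without Dicer, had 606, 1793 and 1085 CPM in the day 1 libraries, against 514, 452 and 212 CPM in the day 0 libraries (log2 fold change 1.52 ± 0.45, limma adjusted p = 0.0164). Its call was lost without day 1 replicate 2 or day 0 replicate 3 (limma adjusted p = 0.0957 to 0.104). miR-486-5p had 3820.3, 5709 and 4893 CPM in the day 1 libraries, against 2650.4, 2825 and 1031 CPM in the day 0 libraries and was not called, and its reads are nearly the same as those listed for miR-3107-5p. The erythroid list (miR-451, miR-144, miR-486) had 1 of 5 tested arms higher and none lower, beside 14.2% of all tested called higher. With library totals, 2 of these arms were higher. The sum of the list ran from 4625 to 8160.0 CPM on day 1, against 1253 to 3233 CPM on day 0, with no member at 0. The part of blood left in the tissue in these and the leukocyte values was not tested. Markers of striated muscle were scarce in both groups, with 6 of 14 rows at 0 in all 6 libraries and sums of 20.5 to 39.3 CPM on day 1, against 23.0 to 38.7 CPM on day 0. Of the kidney lists, miR-192-5p, miR-10a-5p and miR-10b-5p were among the most abundant miRNAs in every library of the comparison. As gut also makes miR-192-5p, these levels alone do not establish kidney identity.

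The arms of a precursor can be set against each other within a library, which removes the scaling apart from the pseudocount. Both arms passed the filter in 150 precursors, and the 5p to 3p ratio changed in 24 (16%), 15 toward the 3p arm and 9 toward the 5p arm. Without day 0 replicate 3 the count was 13, and it was 15 without day 1 replicate 2 or without day 0 replicate 2. The arm that was scarcer gained in 14 of the 24, and in 62 of the 126 that were not called. Where both arms were called in the fit of single miRNAs, they moved together in 16 of 17 precursors.

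The exception was miR-28, which lies in an intron of Lpp. miR-28-5p had 210.1, 192 and 200.1 CPM in the day 1 libraries, against 255, 266 and 328 CPM in the day 0 libraries (log2 fold change -0.49 ± 0.11, limma adjusted p = 0.00199). miR-28-3p had 131, 176 and 144 CPM in the day 1 libraries, against 109.7, 95.8 and 91.5 CPM in the day 0 libraries (log2 fold change 0.59 ± 0.13, limma adjusted p = 0.00182). The 5p arm remained the more abundant, by less on day 1: the log2 ratio of 5p over 3p was 0.68, 0.13 and 0.47 on day 1, against 1.21, 1.46 and 1.83 on day 0, a change of -1.08 ± 0.17, limma adjusted p = 0.000346. Because the seeds differ, the arms have different targets, and the summed seed AGGAGCU of miR-28-5p and miR-708-5p fell by 0.46 ± 0.10, limma adjusted p = 0.00182.

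miR-27a gave the largest shift toward 5p. Its passenger arm miR-27a-5p had 15.5, 11.7 and 11.6 CPM in the day 1 libraries, against 4.69, 6.32 and 3.76 CPM in the day 0 libraries (log2 fold change 1.24 ± 0.19, limma adjusted p = 4.85e-05), while the guide arm, given above, had overlapping days. The log2 ratio was -6.39, -6.71 and -6.75 on day 1, against -7.82, -7.60 and -8.41 on day 0, a change of 1.33 ± 0.19, limma adjusted p = 0.000133. The ratio of miR-1843 changed by -1.11 ± 0.25, limma adjusted p = 0.0049, and that of miR-1981 by 0.82 ± 0.18, limma adjusted p = 0.00465. The shift of miR-1981 was about the size of the fall of miR-1981-3p. That of miR-1843 was larger than the fall of miR-1843-5p (log2 fold change -0.61).

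Of the other largest shifts, those of miR-34c (-0.98) and miR-223 (-0.89) ran toward 3p, and those of miR-183 (0.99), miR-17 (0.71), miR-324 (0.69) and miR-615 (0.69) toward 5p. Each of these 6 calls was lost when at least 1 library was left out, at limma adjusted p from 0.0513 to 0.22. Those of miR-183 and miR-223 were also lost with a pseudocount of 0.5, and that of miR-34c with a pseudocount of 5.

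Among the strongest rises, the arms did not rise equally. In miR-21 the ratio changed by -0.63 ± 0.15, limma adjusted p = 0.00783, the passenger arm gaining more. In miR-212 it changed by -1.09 ± 0.29, limma adjusted p = 0.0149, a call lost without day 1 replicate 1 or day 0 replicate 3 (limma adjusted p = 0.0607 to 0.102). In miR-132 it changed by -0.93 ± 0.25, limma adjusted p = 0.0149, a call lost without day 1 replicate 1 or 2 or day 0 replicate 1 or 3 (limma adjusted p = 0.0513 to 0.102). In both, the 3p arm gained more, and the fold of the scarce 5p arm is the one the added 1 CPM reduces most. The call of the miR-132 ratio was also lost with a pseudocount of 0.5. That of the miR-21 ratio was lost in the fit of the 6 libraries alone (limma adjusted p = 0.0542). miR-101a changed by -0.64 ± 0.13, limma adjusted p = 0.0042, miR-330 by -0.82 ± 0.17, limma adjusted p = 0.0042 and miR-574 by -0.77 ± 0.16, limma adjusted p = 0.0042. The ratios of miR-21, miR-101a, miR-330 and miR-574 were chosen for mention after their values were seen, for miR-21 because of its rank among single miRNAs and for the others because their calls were kept under every alternative run.

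**Figure D4:**
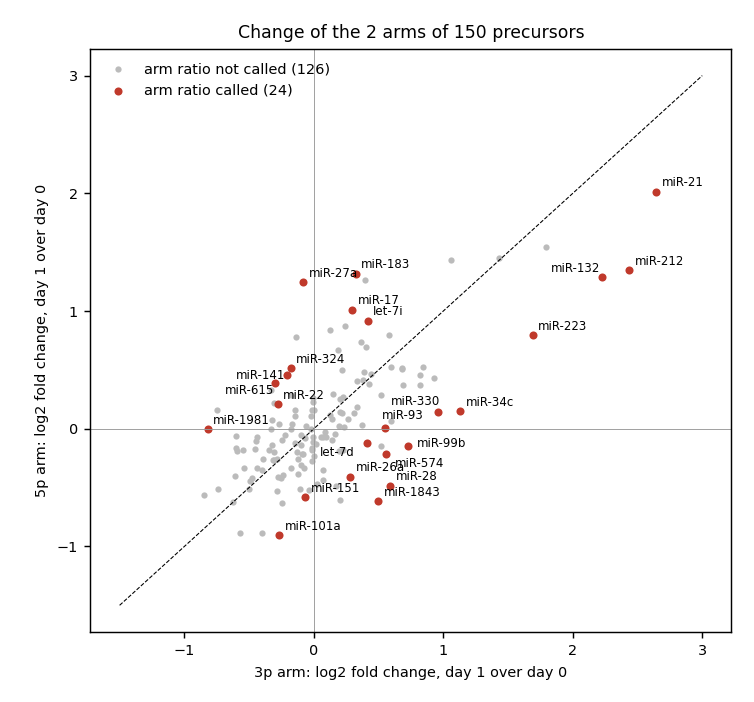
Log2 fold change of day 1 over day 0 of the 3p arm (x axis) and the 5p arm (y axis) of 150 precursors, red where the 5p to 3p ratio changed (24), with the dashed line marking equal change. Most points follow the line, miR-27a and miR-1843 lie far from it, and miR-28 is among the points with a negative 5p and a positive 3p change.

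Summed over shared seeds, 68 of 280 families changed (24.3%), and of the 36 with 2 or more tested members 14 did (38.9%), 5 higher and 9 lower. The 5 that rose were led by miR-132-3p, miR-19b-3p, miR-34b-3p, miR-92a-3p and miR-221-3p. The largest of these sums after miR-132-3p was that of miR-19a-3p and miR-19b-3p, at 1.26 ± 0.22, limma adjusted p = 0.000156. The falls were led by miR-192-5p, miR-28-5p, miR-181a-5p, miR-30a-5p, miR-200a-3p, miR-26a-5p, miR-30a-3p, miR-425-5p and miR-103-3p, and ran from -0.48 to -0.29 in log2 units. Those of miR-30a-5p, miR-30a-3p, miR-425-5p and miR-103-3p were lost without at least 1 library, at limma adjusted p from 0.0511 to 0.109. With library totals, those of miR-200a-3p, miR-30a-3p, miR-425-5p and miR-103-3p were lost.

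Few miRNAs differed between day 2 and day 1. Against day 1, 12 miRNAs were called on day 2 (2.78% of 431), 10 higher and 2 lower. The count was 2 to 6 when single day 2 libraries were left out, and 4 without day 1 replicate 2 or 3. Against day 1, 74 differed on day 3 (17.2%), 51 higher and 23 lower. This count was 49 without day 1 replicate 2 and 45 without day 3 replicate 2. Both comparisons share the day 1 libraries with the main one. The abundant miRNAs that rose on day 1 were not called again on day 2. miR-21-5p averaged 14739.8 ± 1627, 59412 ± 3548, 77268 ± 8332 and 75152 ± 7473 CPM over days 0, 1, 2 and 3 (SD, n = 3 each). miR-92a-3p averaged 5286 ± 487, 11043 ± 951, 11817 ± 287 and 10062 ± 133 CPM on these days.

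Of the 4 called on day 1 and again between day 2 and day 1, 3 went on in the same direction. miR-130b-3p averaged 9.10 ± 2.22, 15.1 ± 2.35, 26.8 ± 2.86 and 49.8 ± 9.28 CPM over days 0, 1, 2 and 3. miR-15b-5p averaged 61.0 ± 3.82, 81.5 ± 10.6, 114 ± 6.94 and 158 ± 15.8 CPM on the same days. miR-203-3p, known from stratified epithelium, averaged 886 ± 42.0, 672 ± 44.5, 462 ± 18.2 and 483 ± 17.1 CPM. The other was miR-204-5p, a kidney and eye miRNA hosted by Trpm3, which was lowest on day 1 of these 4 days. It averaged 316 ± 17.1, 255 ± 23.3, 341 ± 9.80 and 413 ± 16.3 CPM on days 0 to 3. Its fall on day 1 (log2 fold change -0.31 ± 0.10, limma adjusted p = 0.0256) was lost without day 1 replicate 2 or 3 or day 0 replicate 1 (limma adjusted p = 0.0529 to 0.089). That call was also lost with library totals, no filter or the 6 libraries alone (limma adjusted p up to 0.199). The day 1 call of miR-203-3p was lost with library totals, upper-quartile scaling or no filter, and that of miR-15b-5p in the 6 libraries alone. The day 1 call of miR-130b-3p was lost without day 0 replicate 3 (limma adjusted p = 0.051), that of miR-15b-5p without day 1 replicate 2 or 3 or day 0 replicate 2 or 3 (limma adjusted p = 0.0769 to 0.117) and that of miR-203-3p without day 1 replicate 1 or 3 or day 0 replicate 1 or 2 (limma adjusted p = 0.0567 to 0.0746). Between day 2 and day 1, the call of each of these 4 was lost without at least 1 library of these days, at limma adjusted p from 0.0681 to 0.258.

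**Figure D5:**
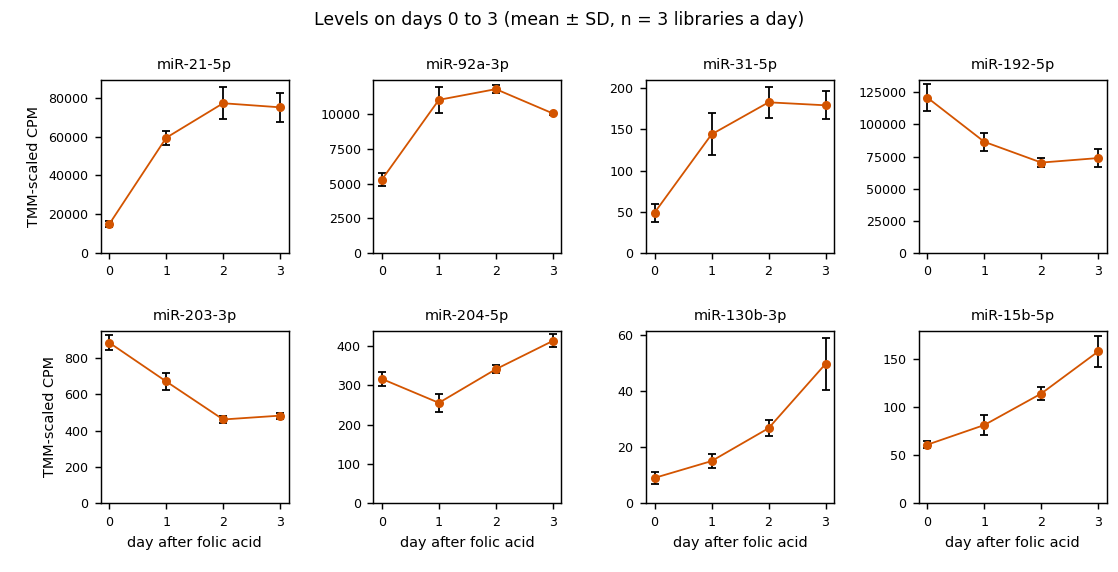
Mean TMM-scaled CPM ± SD (n = 3 libraries a day) on days 0, 1, 2 and 3 for 8 miRNAs. miR-21-5p, miR-92a-3p, miR-31-5p and miR-192-5p made most of their change by day 1, while miR-130b-3p and miR-15b-5p went on rising and miR-204-5p was lowest on day 1.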

How the data were processed

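miRNAs of whole kidney were sequenced from libraries prepared with the TruSeq small RNA kit, per the labels' protocols. The authors deposited 1 table of CPM, in which every column has the same total over miRNAs. CASAVA 1.8 and genome build mm9 are named in the submitters' processing notes, while the sources used here name no aligner, counter or miRBase release. Whole reads were recovered from the CPM steps for 100% of values (tolerance 0.05 of a read, largest distance 0.0432), giving 2875675 to 7110546 reads per library. Same-day libraries differed by more than sampling noise, so none was a copy. Identical reads were held by 12 tested rows, among them the called miR-669a-3p and miR-669o-3p.

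edgeR 4.0.16 (filterByExpr, minimum count 10, on recovered reads) left 431 of 1125 miRNAs, and 250 had no read at all. limma 3.58.1 (limma-trend, R 4.3.3) was fitted to log2(CPM + 1) of TMM-scaled CPM over 21 libraries with a mean per day. The same model was fitted to 5p minus 3p differences, to sums over shared seeds and, added after the data were seen, to ratios of related pairs. The scripts were tested on simulated data. Alternatives were library totals, RLE and upper-quartile scaling, pseudocounts of 0.5 and 5, no filter, the 6 libraries alone, robust empirical Bayes, a replicate block, leaving out each library, and edgeR and DESeq2 1.42.0 on recovered reads. Sequences came from RefSeq and matched 890 of 1125 names.

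Named miRNAs were the 12 largest called rises and falls averaging at least 10 CPM with no overlap between days, the 10 most abundant, members of 35 lists by name, the 6 largest arm ratios each way, and those called on days 1 and 2. The members and lists were chosen with earlier results of these data known. List sums and shares of reads use the deposited CPM.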

Additional observations from a re-analysis of the deposited data

Results flagged for a closer look

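Of the 431 miRNAs tested, 12 differed between day 2 and day 1 in the same fit (limma, Benjamini-Hochberg adjusted p under 0.05), which is a test of the difference between the effects of these days over day 0. Higher on day 2 than on day 1 were miR-298-5p (log2 difference 1.75), miR-214-3p (1.02), miR-375-3p (0.89), miR-130b-3p (0.80), miR-92b-3p (0.73), miR-214-5p (0.71), miR-574-5p (0.63), miR-615-3p (0.54), miR-15b-5p (0.49) and miR-204-5p (0.42). Lower were miR-1968-5p (-0.81) and miR-203-3p (-0.54). Only miR-298-5p and miR-375-3p kept their call when any library of day 2 or day 1 was left out and under the other alternatives run. With 3 libraries a day, no library was tested for standing apart from its group.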

How the results depend on the processing

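Of the 109 miRNAs called on day 1, 55 kept their call under every alternative run and 52 lost it under at least 1, 50 of them without some library. The other 2, miR-31-3p and miR-147-3p, kept it where tested but did not pass the filter in the fit of 6 libraries. Seed family sums with 2 or more members kept 8 of 14 calls, ratios of related pairs 49 of 82 (2 more could not be tested in the 6 libraries), arm ratios 7 of 24 and day 2 against day 1 2 of 12. edgeR called 105 (104 shared with limma), DESeq2 102 (99 shared) and limma on the 6 libraries alone 88 (82 shared). The lower calls numbered 27 with library totals and 30 with no filter. With no filter, more miRNAs enter the adjustment. A pseudocount of 5 gave 16 arm ratios toward 5p in place of 9. Falling seed families numbered 15 with library totals or no filter, in place of 29. For day 2 against day 1, no filter left 6 (4 higher), and the lower count was 0 with library totals and 1 with upper-quartile scaling or a replicate block. For day 3 against day 1, the lower count was 12 with library totals and 35 with upper-quartile scaling. The cause of these shifts was not tested. Leaving out each library in turn gave 82 to 99 calls on day 1 (43 to 53 higher, 31 to 49 lower), 13 to 20 arm ratios (5 to 10 toward 5p, 8 to 14 toward 3p), 50 to 65 seed families (30 to 35 higher, 18 to 31 lower), 71 to 87 pair ratios (34 to 42 higher, 32 to 45 lower), 2 to 12 on day 2 (2 to 10 higher, 0 to 2 lower) and 45 to 65 on day 3 (31 to 40 higher, 14 to 25 lower). The miRNAs near 0 changed sign: miR-10a-5p was 0.084 with library totals, 0.011 with upper-quartile scaling, 0.033 with no filter and 0.00638 in edgeR (-0.18 to 0.12 without single libraries), miR-10b-5p 0.036 with library totals (-0.23 to 0.070), and miR-143-3p 0.072 with library totals and 0.021 with no filter (-0.18 to 0.065). Deviations of same-numbered day 1 and day 0 libraries correlated at -0.0568, -0.0448 and 0.0693, within the -0.159 to 0.216 of differently numbered ones. With 3 libraries a day, these values cannot show whether the numbers pair the libraries. The fit with a replicate block called 111, of which 106 were shared. Depth limits the scarce miRNAs, since 3 reads are worth up to 1.04 CPM.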
